A study of Mus musculus with 5 samples.

Results

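The cells described here are T cells of the atherosclerotic mouse aortic arch that held many molecules of Ccl5, a chemokine that draws T cells and monocytes, and Nkg7, a membrane protein of cytotoxic granules. They were chosen by a rule on measured values. Of 1743 deposited cells, 1656 had at most 25% of their molecules from mitochondrial genes, and 435 of these counted as Cd3 cells. A Cd3 cell held at least 4 molecules of Cd3d, Cd3e and Cd3g per 10000 from at least 2 molecules, under 30 per 10000 of C1qa, C1qb and C1qc, and under 10 per 10000 of Cd79a and Cd79b. A Ccl5-high cell held in addition at least 15 molecules of Ccl5 and Nkg7 per 10000 and under 3 molecules of Trdc, the delta chain of the gamma-delta T cell receptor. In all 100 cells met the rule, 46 in the pool labelled wild-type and 54 in the pool labelled Saa3-/-. A further 101 Cd3 cells held at least 3 Trdc molecules, and the remaining 234 are called other Cd3 cells here. The Trdc limit alone kept 2 and 1 cells out of the Ccl5-high set.

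The cells came from a single suspension of live CD45-positive cells sorted from digested aortic arches of female mice, in which the cells of each genotype carried a sample tag. The pool labelled wild-type was from C57BL/6J mice, and the pool labelled Saa3-/- from mice with the targeted allele C57BL/6N-Saa3tm1.1(KOMP)Vlcg/MbpMmucd, which the design text calls littermates. Mice of both genotypes, 12 weeks old per the labels, had received an adeno-associated virus vector for the induction of atherosclerosis once into the peritoneum and a Western diet for 18 weeks. The age of 12 weeks is shorter than the diet of 18 weeks, so it cannot be the age at the end of the diet. The number of mice per pool is not given in the labels. The series is about the role of Saa3 in aortic immune cells during atherosclerosis, and the pools bear on it through the comparison of the same cells with either label. With 1 pool per genotype there is no replicate, so no test was made, and all intervals below are 95% intervals of counting error only. The 2 strain names differ between the pools, so strain, Saa3 allele and pool cannot be told apart.

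The summed level of the targeted gene in all kept cells went against the labels, while the share of cells holding it ran with them. In all kept cells Saa3, an acute-phase serum amyloid A gene, stood at 148 CPM (molecules scaled to a total of 1e+06) in the pool labelled wild-type and 242 CPM in the pool labelled Saa3-/-, where the 2 highest cells held 1124 of 1268 molecules, against 382 of 1079 in the pool labelled wild-type. Without the 2 highest cells of each pool it stood at 96.2 and 27.8 CPM (697 and 144 molecules), and it was found in 170 of 833 cells, 20.4% (17.7 to 23.3), and 114 of 823, 13.9% (11.6 to 16.4). The direction of the sums in all kept cells thus rests on 2 cells. In the Ccl5-high cells it was low in both: 12 molecules, 51.2 CPM (26.4 to 89.4), in 10 of 46 cells, and 6 molecules, 26.5 CPM (9.72 to 57.7), in 5 of 54 cells. B cells, taken as a reference for free RNA, stood at 17.7 and 25.04 CPM. The intervals of the Ccl5-high cells in the 2 pools overlap.

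Cytotoxic T cells kill target cells by releasing granules that hold perforin, which opens the target's membrane, and granzymes, proteases that enter and start cell death. They also secrete interferon gamma and chemokines of the CCL and XCL families. Most carry the CD8 coreceptor, which binds MHC class I, and the T-box factors EOMES and T-bet, with RUNX3, drive the effector program, while TCF7, LEF1 and SATB1 mark naive and memory-precursor cells. CD8 T cells are a regular component of mouse atherosclerotic lesions.

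Ccl5 lies at chr11:83525778-83530518 on the minus strand and Nkg7 at chr7:43437073-43438249 on the plus strand (GRCm38). The windows below show the 250 bases before the RefSeq start (GRCm38.p6) of Nkg7 and of Gzma and Gzmk, granzyme genes described next, 5′ to 3′ along the gene. They are shown because they hold short core motifs of the factor families named above. Capitals mark TGTGGT (the RUNX core) or AGGTGT (the T-box core) on either strand, read on the minus strand as ACCACA and ACACCT.
Nkg7: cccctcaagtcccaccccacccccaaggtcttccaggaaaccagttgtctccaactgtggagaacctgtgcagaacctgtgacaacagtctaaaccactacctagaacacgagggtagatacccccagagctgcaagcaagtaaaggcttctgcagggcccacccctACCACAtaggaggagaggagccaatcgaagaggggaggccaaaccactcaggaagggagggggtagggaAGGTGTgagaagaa
Gzma: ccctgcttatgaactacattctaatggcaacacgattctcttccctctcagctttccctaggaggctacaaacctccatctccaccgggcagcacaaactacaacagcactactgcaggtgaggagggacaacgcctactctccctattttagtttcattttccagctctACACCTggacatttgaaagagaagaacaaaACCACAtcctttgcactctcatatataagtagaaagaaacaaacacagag
Gzmk: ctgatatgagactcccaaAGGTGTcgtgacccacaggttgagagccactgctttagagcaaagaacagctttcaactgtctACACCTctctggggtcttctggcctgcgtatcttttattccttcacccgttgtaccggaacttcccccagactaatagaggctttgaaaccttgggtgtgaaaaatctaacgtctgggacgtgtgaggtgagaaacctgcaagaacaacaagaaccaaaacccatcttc
Nkg7 and Gzma each hold 1 RUNX core and 1 T-box core, and Gzmk holds 2 T-box cores. Of the 12 genes with the highest ratio over other Cd3 cells (below), 8 had a window: Lax1, Dusp2, Osbpl3, Eomes, Adam19, Gzma, Gzmk and Ly6c2. Of these windows 3 held the RUNX core and 3 the T-box core, and among all 32851 windows the shares were 14.05% and 11.8%. These letter matches are a description of the windows and not of binding. The GENCODE model of Gzmk reaches further upstream than the RefSeq start used here. Ccl5, Ctsw, Ccl4 and Klrd1 had no window.

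The name T cell was checked against the receptor genes. Trac, the constant region of the T cell receptor alpha chain (chr14:54220521-54224206, plus strand), was found in 94 of 100 Ccl5-high cells, and Trbc1 or Trbc2, the beta chain constant regions, in 100 of 100, against 13 and 30 of 126 B cells. The median cell held 4251 molecules among the Ccl5-high cells and 3246.5 among the B cells. A Trdc molecule was found in 5 of 100 cells, where the rule allowed under 3 molecules a cell, and in 9 of 126 B cells. Of the 16 genes of the receptor complex and its signalling (Cd3e, Lck, Lat, Zap70 and others), 0 were at least 2-fold higher or lower than in other Cd3 cells in both pools, where 1.75% of all 3033 genes compared were higher and 2.31% lower. Their median log2 ratio was 0.17 and 0.16 in the pools labelled wild-type and Saa3-/-. Cd3d, Cd3e and Cd3g of this list are genes of the rule, and both classes had to hold them. Ncr1, which defines natural killer cells, was at 0 of 461029 molecules, which allows up to 6.51 CPM. Other genes of the 7 natural killer markers were present. The 7 summed to 836 and 556 CPM, against 368 and 175 CPM in other Cd3 cells. Over both pools Eomes, also a factor of cytotoxic T cells, stood at 540 CPM and Tyrobp at 115 CPM (in 30 cells). Klra9 stood at 19.5, Klrb1c and Klra8 at 8.68 and Klra4 at 6.51 CPM. Foxp3, the factor of regulatory T cells, and Il17a were also at 0. The Ccl5-high cells are thus T cells by receptor transcripts. Each held both Ccl5 and Nkg7, which 21 of 234 other Cd3 cells and 1 of 126 B cells did. The rule chose the cells on the sum of these 2 genes, so that contrast is no check of the name.

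The measure of the rule covered a wide range in both pools. Ccl5 and Nkg7 together ran from 15.7 over a median of 54.6 to 274 molecules per 10000 in the pool labelled wild-type, and from 15.2 over 80.1 to 343 in the pool labelled Saa3-/-. The cells just inside the limit stood at 15.2, 15.7, 17.9, 18.2 and 18.6, and those just outside at 14.7, 14.3, 13.1, 12.9 and 12.5, the latter all in the pool labelled wild-type. Summed over cells, Ccl5 stood at 6101 and 6402 CPM and Nkg7 at 1040 and 1506 CPM in the same order. Other Cd3 cells had a median of 0 in both pools, as the plot of the Ccl5 and Nkg7 score shows.

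**Figure D1:**
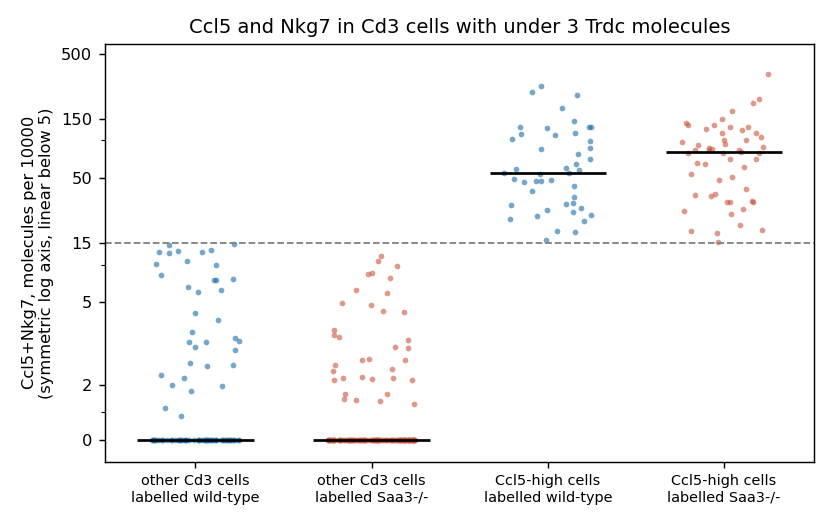
Molecules of Ccl5 and Nkg7 per 10000 (symmetric log axis) in each Cd3 cell with under 3 Trdc molecules, 1 point a cell, by class and labelled pool; bars are medians and the dashed line is the limit of 15. The Ccl5-high cells spread from 15.2 to 343, and 5 other cells of the pool labelled wild-type lie at 12.5 to 14.7.

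The share of Ccl5-high cells did not differ between the pools beyond counting error. They were 46 of 189 Cd3 cells, 24.3% (18.4 to 31.1), in the pool labelled wild-type and 54 of 246, 22.0% (16.9 to 27.7), in the pool labelled Saa3-/- (exact binomial intervals). Of all kept cells they were 5.52% (4.07 to 7.30) and 6.56% (4.97 to 8.47). When every cell was thinned to 2000 molecules, and cells with fewer left out, the shares of Cd3 cells were 26.5% (36 of 136) and 23.4% (43 of 184). The intervals of the pools overlap under each denominator. The Cd3 denominator held unequal numbers of cells with Rag1 or Dntt, 19 of 90 and 63 of 144 other Cd3 cells. Shares without these cells were not taken. The Ccl5-high cells held a median of 5054.5 and 3974 molecules and 234548 and 226481 in all, so those of the pool labelled wild-type were the deeper ones.

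Most Ccl5-high cells carried CD8 transcripts. Cd8a or Cd8b1, the coreceptor chains, without Cd4 were found in 32 of 46 cells from the pool labelled wild-type, 69.6% (54.2 to 82.3), and in 35 of 54 from the pool labelled Saa3-/-, 64.8% (50.6 to 77.3). Over both pools 15 cells held Cd4 only, 3 held both coreceptors and 15 held neither. Among other Cd3 cells 37 of 234 held CD8 only, 69 Cd4 only and 81 both, and among Cd3 cells with at least 3 Trdc molecules 84 of 101 held neither. Thinned to 2000 molecules, 60.9% and 55.6% of the Ccl5-high cells were CD8-only and 23.9% and 33.3% held neither, against 13.04% and 16.7% at full depth. Both Cd8a and Cd8b1 were found in 54 cells, and Cd8a without Cd8b1 in 11.

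**Figure D2:**
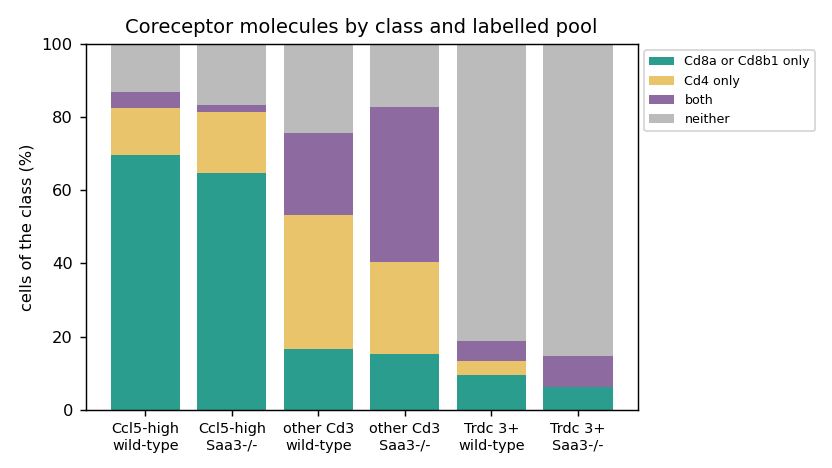
Share of cells (%) holding Cd8a or Cd8b1 only, Cd4 only, both or neither, by class and labelled pool. CD8-only cells make up 69.6% and 64.8% of the Ccl5-high cells, and neither coreceptor is found in 84 of 101 Cd3 cells with at least 3 Trdc molecules.

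Granule genes were spread unevenly over the cells. At least 1 molecule of Gzma, Gzmb, Gzmk or Prf1 (granzymes A, B and K, and perforin) was found in 69 of 100 Ccl5-high cells, in 40 of 234 other Cd3 cells and in 2 of 126 B cells. The remaining 31 Ccl5-high cells held none of the 4 at this depth. Gzmk was the most widespread, in 42 cells against 7 of 234 other Cd3 cells, followed by Gzmb in 28 cells, Prf1 in 17 and Gzma in 16. Ctsw, a cathepsin of killer lymphocytes, was found in 75 cells and Fasl, the ligand of the death receptor FAS, in 36. B cells held Gzmb, Gzmk and Prf1 in 0 of 126 cells, Fasl in 1 and Ctsw in 5. Gzmb and Gzmk shared 11 cells, Gzma and Gzmb 8, Gzma and Gzmk 4, and Gzmb and Prf1 9.

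Gzmk (chr13:113171608-113225908, minus strand) had 59 molecules, 251 CPM (191 to 324), in the Ccl5-high cells of the pool labelled wild-type and 48 molecules, 212 CPM (156 to 281), in those of the pool labelled Saa3-/-. Other Cd3 cells had 36 molecules, 68.9 CPM, and 4 molecules, 5.94 CPM. The intervals of the 2 classes did not overlap in either pool, and the log2 ratios were 1.86 and 5.00. In the pool labelled wild-type 26 of the 36 molecules of the other Cd3 cells came from a single cell of 55599 molecules, which held 43 Cd8a and 43 Mki67 molecules, and without it the smaller log2 ratio of the pools was 3.50 (setting chosen after seeing the data). Gzmb (chr14:56258838-56262260, minus strand) had 59 and 48 molecules, 251 and 212 CPM, against 8 and 0 in other Cd3 cells. The highest of the CD8-only cells held 25 of the 59 and 14 of the 48. Against 0 molecules the level in the pool labelled Saa3-/- was at least 47.6-fold higher, taking a floor of 3 molecules in the other cells. Prf1 had 12 and 11 molecules against 8 and 2.

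Gzma (chr13:113093825-113100981, minus strand) differed from Gzmk in how the cells holding it were spread over the classes. It had 85 molecules, 362 CPM (289 to 448), and 148 molecules, 654 CPM (552 to 768), in the Ccl5-high cells, and 72.7 and 52.0 CPM in other Cd3 cells. Yet it was found in 16 of 100 Ccl5-high cells and in 30 of 234 other cells, 16.0% (9.43 to 24.7) and 12.8% (8.82 to 17.8). The 3 highest cells held 68.2% of its molecules in the Ccl5-high set, and the highest cell of the CD8-only cells held 68 of the 85 molecules in the pool labelled wild-type and 61 of the 148 in the pool labelled Saa3-/-. Most Gzma molecules thus came from a few cells.

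Some secreted factors and surface receptors were also higher than in other Cd3 cells. Xcl1, a chemokine for cross-presenting dendritic cells, had 56 and 72 molecules (239 and 318 CPM) against 91.9 and 23.8 CPM, and was found in 30 Ccl5-high cells and 3 of 126 B cells. Ccl4, a chemokine of activated T cells, stood at 145 and 168 CPM against 32.5 and 38.6 CPM. Its share of cells was 42%, and 10.3% in B cells. Ifng, interferon gamma, had 27 and 19 molecules, 115 and 83.9 CPM, against 24.9 and 1.49 CPM. Itga4, the alpha4 integrin that binds VCAM-1 on activated endothelium, stood at 1028 and 896 CPM against 387 and 223 CPM. It was found in 54.8% of B cells too, and whether as free RNA or as their own transcript was not tested. Klrd1 and Klrc1, which pair as the inhibitory receptor CD94-NKG2A, were found in 37 and 29 cells against 1 and 1 of 126 B cells. Ly6c2, a surface protein of memory CD8 T cells and monocytes, stood at 401 and 724 CPM against 95.7 and 86.1 CPM.

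At least 1 of the T-box factors was found in most of the cells, Eomes more often than Tbx21. Eomes (chr9:118478212-118486132, plus strand) had 160 molecules, 682 CPM (581 to 796), and 89 molecules, 393 CPM (316 to 484), against 193 and 65.4 CPM in other Cd3 cells. It was found in 63 of 100 Ccl5-high cells, 15 of 234 other Cd3 cells and 5 of 126 B cells, and together with Gzmk in 35. Eomes or Tbx21, which encodes T-bet, was found in 75 of 100 cells. Tbx21 was found in 29 of 100 cells and had 28 and 21 molecules, 119 and 92.7 CPM. Hopx, a homeodomain protein of effector and memory T cells, stood at 269 and 221 CPM against 101 and 25.2 CPM. Thinned to 2000 molecules, Eomes was found in 50% of the cells in each pool and Gzmk in 26.1% and 25.9%, with 3.33% and 0% of B cells.

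**Figure D3:**
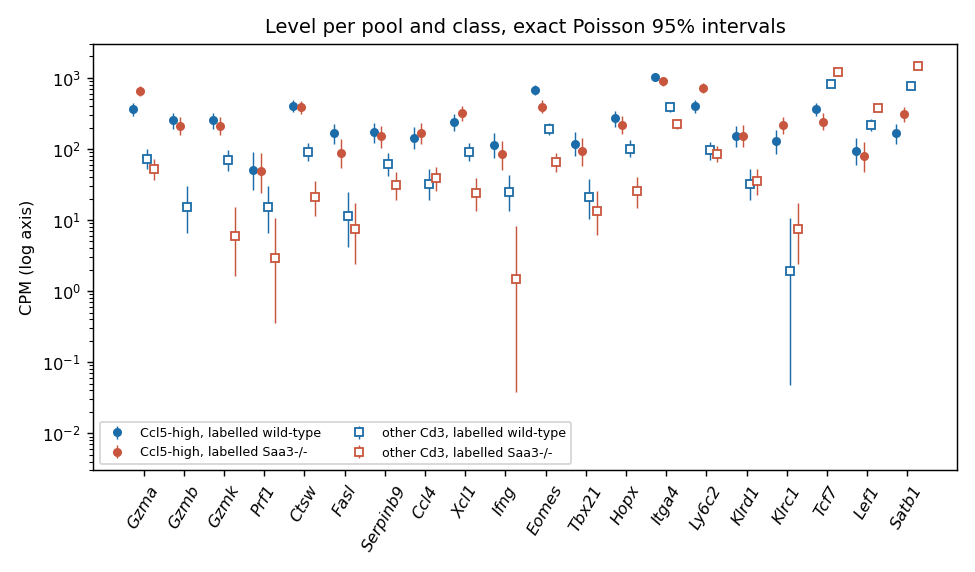
Level in CPM (log axis) of 20 genes in Ccl5-high cells (filled circles) and other Cd3 cells (open squares) of each labelled pool, with exact Poisson 95% intervals from summed molecules. Eomes stands at 682 and 393 CPM in the Ccl5-high cells and at 193 and 65.4 CPM in the others, and Satb1 at 166 and 309 against 762 and 1454 CPM; a group without a molecule has no point, as Gzmb in other Cd3 cells of the pool labelled Saa3-/-.

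Across all genes the comparison with other Cd3 cells is that of the rule, so the following is a description with no test. Of 3033 genes with at least 50 molecules over both classes in each pool, 53 (1.75%) were at least 2-fold higher in the Ccl5-high cells of both pools and 70 (2.31%) at least 2-fold lower. The median log2 ratio of all these genes was -0.03 and -0.05. By the smaller of the ratios of the 2 pools the 12 highest, the rule's genes left out, included Gzma, Ctsw, Ccl4, Klrd1, Ly6c2, Dusp2, Gzmk, Eomes, Adam19, Osbpl3 and Lax1. Their smaller log2 ratios ran from 2.31 for Gzma to 1.57 for Lax1, an adaptor that limits receptor signalling. The 12 lowest were Rag1, Dntt, Ube2c, Endou, Ramp1, Ccr9, Sox4, Cd24a, Gm10282, Satb1, Trib1 and Ramp3, among which Rag1 and Dntt encode enzymes of V(D)J recombination in developing lymphocytes. Rag1 had 1 and 0 molecules in the Ccl5-high cells against 65 and 204 in the others, at least 22.9-fold lower in the pool labelled Saa3-/- with a floor of 3 molecules.

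Of 19 genes of the cytotoxic granule, 9 reached the 50-molecule limit, and 6 of these passed 2-fold higher (Nkg7, a gene of the rule, and Gzma, Gzmk, Ctsw, Serpinb9 and Rab27a) and 0 lower, with a median log2 ratio of 1.47 and 2.25. Without Nkg7, whose ratio the rule fixed, they were 5 of 8, with a median of 1.47 and 1.82. Serpinb9, which shields a cell from its own granzyme B, stood at 171 and 150 CPM against 61.3 and 31.2 CPM. Srgn and Lamp1, the granule proteoglycan and membrane protein, did not pass, with log2 ratios of -0.12 and 0.87 and of -0.32 and -0.79. A gene reaches that limit more easily where it is high, so these counts speak only of the genes that reached it. Of 3 secreted factors tested, the rule's Ccl5 left out, Ccl4 and Xcl1 were higher, of 12 homing receptors Itga4 was among the higher and Ccr7, the receptor for lymph node entry, lower, and of 9 effector factors Eomes and Hopx were higher. Of 9 naive and memory-precursor factors 0 were higher and 4 lower: Tcf7, Lef1, Satb1 and Igfbp4. The Tcf7 call ended with the comparator without Rag1, Dntt, Mki67 or Top2a cells described below. Tcf7 stood at 362 and 243 CPM against 831 and 1225 CPM, and Tcf7 or Lef1 was still found in 57 of 100 Ccl5-high cells against 210 of 234 others and 9 of 126 B cells.

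Further lists had fewer genes past 2-fold. Of 11 MHC class I genes 2 were higher, H2-Q7 and Nlrc5, the transactivator of the class, and the median log2 ratio was 0.56 and 0.99. Both calls ended with the comparators without Rag1 or Dntt cells described next, where 0 of 9 were higher. Nlrc5 passed again with CD8-only cells in both classes, at a smaller log2 ratio of 1.37. H2-Q7 has near-identical neighbours such as H2-Q6, and how molecules were split among them is not stated, so its level is uncertain, as are those of Ly6c2, Klrc1 and the Trbc genes. Of 11 proliferation genes 0 were higher and 1, Stmn1, lower, with a median of -1.55 and -0.30. Mki67 or Top2a was found in 31 of 100 Ccl5-high cells and 63 of 234 others. A molecule of either was found in 8 of 126 B cells. Of 13 immediate early genes 1, Fos, was lower. Of 3 natural killer type receptors tested Klrd1 was higher, of 6 interferon-response genes Ly6c2 was higher and Igtp lower, of 3 coreceptor genes Cd4 was lower (a call that also ended with those comparators), and of 6 lipid-sensing genes Srebf2, a regulator of sterol synthesis, was lower. No gene of the inhibitory (4 tested), costimulatory (3) or cytokine receptor (7) lists passed 2-fold.

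The counts changed with the cells set opposite. Of the other Cd3 cells 19 of 90 and 63 of 144 held Rag1 or Dntt, against 3 of 46 and 1 of 54 Ccl5-high cells. Without the former 23 genes were higher and 28 lower, of which 23 and 23 were also among the genes above (settings of this paragraph chosen after seeing the data). Without cells holding Mki67 or Top2a as well, the counts were 21 and 17, and Gzmk, Gzma, Ctsw, Eomes, Itga4, Xcl1 and Ly6c2 were among the higher genes. Of 9 MHC class I genes 0 passed under either setting, with a median log2 ratio of 0.32 and 0.61 under the former and 0.28 and 0.72 under the latter. Cd4 was lower under neither, and under the latter Cd8a (log2 ratios 1.47 and 2.31) and Cd8b1 (1.40 and 1.77) were higher. Of 8 naive and memory-precursor factors 3 were lower under either. Under the latter these were Lef1, Satb1 and Igfbp4, and Tcf7 was not among them. In the proliferation, interferon-response and lipid-sensing lists 0 genes were lower under either, and of 9 effector factors 1 was higher. Under the latter the higher factor was Eomes and not Hopx, and 1 factor, Ikzf2 (-1.02), was lower. With CD8-only cells in both classes (32 and 35 Ccl5-high cells, 15 and 22 others), 705 genes could be compared, 21 were higher and 2, Satb1 and Tubb5, lower. The higher genes there included Gzma, Ctsw, Eomes, Itga4, Il2rb (the interleukin 2 and 15 receptor beta chain), Rgs1 and Ahnak. Ly6c2 was then below 2-fold, at a smaller log2 ratio of 0.47. Of the 21 higher genes 12 were also among the 53. The cell of 55599 molecules described above held 46.8% of the 118713 molecules of the 15 others from the pool labelled wild-type, 35 of their 50 Ccl5 and 23 of their 39 Eomes molecules. Without it 655 genes could be compared, and 26 were higher and 6 lower, of which 9 and 3 were among the 53 and the 70. Gzma (3.67), Itga4 (1.94) and Eomes (1.51) were still higher and Satb1 (-1.72) lower by the smaller log2 ratio, Tcf7 (-1.72) was then lower too, Ctsw stood at 0.67, and Ly6c2 went in opposite directions in the pools, at -0.39 and 0.58. The Gzma ratios rested on few molecules and cells, 85 and 97 molecules against 2 and 4. A single Ccl5-high cell held 68 of the 85.

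Levels were also read by grade of Ccl5 and Nkg7. In cells with 0, under 15, 15 to 50, and at least 50 molecules per 10000, Eomes stood at 0, 339, 790 and 564 CPM in the pool labelled wild-type and at 6.18, 218, 376 and 402 CPM in the pool labelled Saa3-/-. Gzmb stood at 0, 26.8, 65.1 and 457 CPM and at 0, 0, 97.1 and 278 CPM. Eomes was thus already present below the limit, and Gzmb was mostly in the cells with the most Ccl5 and Nkg7. Tcf7 stood at 1159, 584, 488 and 224 CPM and at 1393, 793, 279 and 222 CPM, lowest in the top grade of both pools. The grades come from the rule's own genes, so this is a description.

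**Figure D4:**
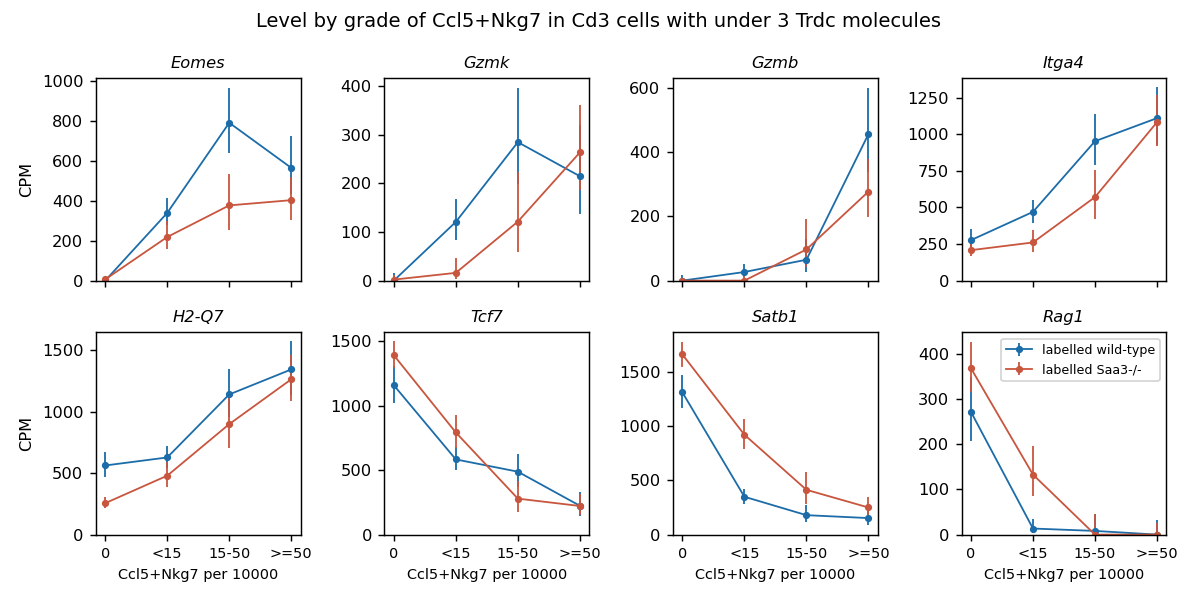
Level in CPM of 8 genes in Cd3 cells with under 3 Trdc molecules, by grade of Ccl5 and Nkg7 (molecules per 10000), for each labelled pool, with exact Poisson 95% intervals. Eomes and Itga4 are present below the limit of 15, Gzmb stands at 457 and 278 CPM in the top grade, and Tcf7 goes from 1159 and 1393 CPM without Ccl5 and Nkg7 to 224 and 222 CPM in the top grade.

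The 15 Ccl5-high cells with neither coreceptor had other levels of several receptor genes than the 67 CD8-only cells. Xcl1 stood at 1018 CPM (682 to 1463) and 935 CPM (658 to 1288) in the 2 pools against 130 CPM (81.2 to 196) and 225 CPM (154 to 317), though a single cell held 23 of its 29 molecules in the pool labelled wild-type. Over both pools Ly6c2 stood at 1337 against 455 CPM, Klrd1 at 338 against 141 CPM and Klra7, an inhibitory Ly49 receptor, at 309 against 22.4 CPM. Tox, a factor of persistently stimulated CD8 cells, was lower, at 73.5 against 538 CPM, as was Itga4 at 441 against 1133 CPM. The 15 Cd4-only cells held 209 CPM of Eomes and 145 CPM of Ctsw, and any of Gzma, Gzmb, Gzmk and Prf1 in 8 of 15 cells. They held 0 molecules of Prf1, Cd7 and Klra7, each with an interval up to 59.4 CPM. The CD8-only cells stood at 60.8, 131 and 22.4 CPM, and only for Cd7 did the intervals not overlap. These sets hold few cells, so single cells weigh heavily.

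Few genes differed 2-fold between the pools within the Ccl5-high cells. Of 1869 genes with at least 50 molecules over both pools, 10 (0.535%) were at least 2-fold higher and 29 (1.55%) at least 2-fold lower in the pool labelled Saa3-/-, with a median log2 ratio of -0.01. In the lists of granule, secreted, T cell receptor, MHC class I and proliferation genes 0 passed 2-fold between the pools (of 10, 3, 15, 9 and 8 tested). The genes of the other lists that passed were Ccr2 and Klf2, higher, and Maf, Dusp1 and Il7r, lower. Ccr2, the receptor for CCL2 on monocytes and effector T cells (chr9:124101950-124113557, plus strand), had 24 molecules, 102 CPM (65.6 to 152), in 10 of 46 cells with the label wild-type and 49 molecules, 216 CPM (160 to 286), in 21 of 54 cells with the label Saa3-/-. Its intervals did not overlap and its log2 ratio was 1.07. Ccr2 was picked for passing 2-fold among the 1869 genes, so the gap between its intervals is no separate support. Thinned to 2000 molecules it was found in 15.2% and 25.9% of the cells and in 5% of B cells. Klf2, which keeps T cells in circulation, had 37 and 72 molecules, 158 and 318 CPM, and a log2 ratio of 1.00. The other higher genes were Gem (1.56), Mafk (1.20), Slc9a3r1 (1.18), Rbm8a (1.15), Cox5b (1.10), Rrbp1 (1.06), Dusp10 (1.03) and Cd48 (1.03).

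Among the lower genes, Maf, a factor of interleukin 10 producing and tissue T cells, had 88 molecules, 375 CPM (301 to 462), in the pool labelled wild-type and 29, 128 CPM (85.8 to 184), in the pool labelled Saa3-/-, a log2 ratio of -1.53. Dusp1, a phosphatase that ends MAP kinase signals, had 83 and 25 molecules, 354 and 110 CPM, and a log2 ratio of -1.66. Il7r, the receptor chain for the survival factor interleukin 7, had 73 and 34 molecules, 311 and 150 CPM, a log2 ratio of -1.04. The lowest ratios were those of Trps1 (-1.96) and Rev3l (-1.93), followed by Pkp4 (-1.73), Tbc1d4 (-1.62), Rdx (-1.48), Sec31a (-1.43), Ric1 (-1.43) and Asap1 (-1.35). Much of the signal of some of them came from few cells: the 3 highest cells held 43.1% of the Trps1 molecules, 48.5% of those of Tbc1d4 and 35.9% of those of Maf. Without the 3 highest cells of each gene, 35 genes were higher and 17 lower (setting chosen after seeing the data), of which 5 and 11 were among the genes above, and Tbc1d4 stood at -0.33. Stat3, a transducer of cytokine signals, had the most molecules of the genes past 2-fold, and is named after its values were seen. It had 178 molecules, 759 CPM, in the pool labelled wild-type and 85 molecules, 375 CPM, in the pool labelled Saa3-/-, a log2 ratio of -1.01. The 3 highest cells held 14.8% of its molecules.

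**Figure D5:**
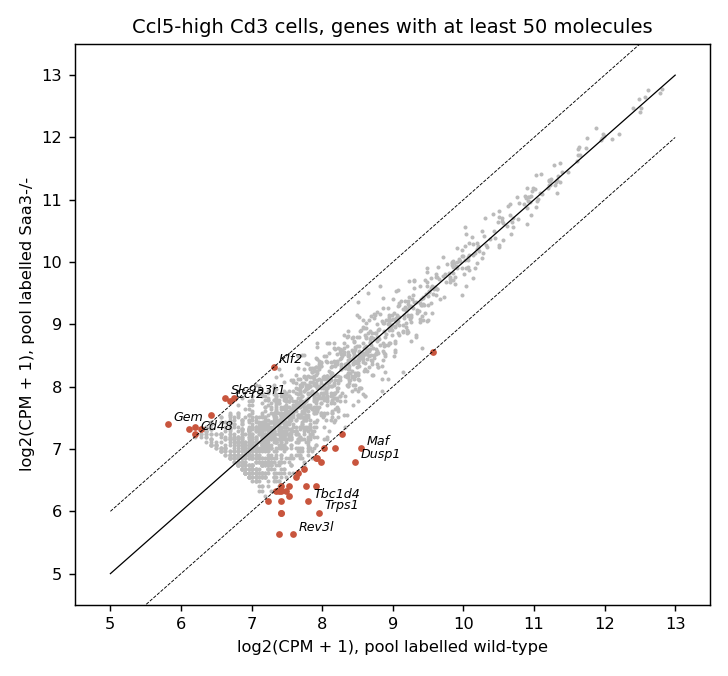
Level of 1869 genes, as log2(CPM + 1), in Ccl5-high cells of the pool labelled wild-type (x axis) and of the pool labelled Saa3-/- (y axis); the solid line marks equality, the dashed lines 2-fold, and the 39 genes past 2-fold are red. Most genes lie near equality, and of those past 2-fold Stat3 lies highest on the x axis, at 759 CPM.

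Transcripts of macrophages and B cells were present at about the level of the other Cd3 cells. C1qa, C1qb, C1qc, Cd79a and Cd79b of these lists are genes of the rule, which capped them in both classes. Part of the likeness was thus set by the rule. The 10 macrophage markers summed to 1889 and 1753 CPM in the Ccl5-high cells and to 2020 and 1806 CPM in other Cd3 cells, and the 7 B cell markers to 985 and 980 CPM against 992 and 924 CPM. A C1q molecule was found in 80 of 100 Ccl5-high cells, 194 of 234 other Cd3 cells and 95 of 126 B cells. The smooth muscle markers (4) summed to 541 and 565 CPM against 1082 and 1430 CPM, and Tagln and Myh11 of smooth muscle and Col1a1 of fibroblasts were among the genes at least 2-fold lower. Their part in the ratios above was not tested.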

How the data were processed

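Cells of a sorted aortic arch suspension were analysed; 4 macrophage culture samples were not used here. Reads were processed by the authors with the BD Rhapsody WTA Analysis Pipeline version 1.11.1, per the file headers, with GENCODE release M19 on GRCm38, intronic reads included. The deposited values are counts of molecules per cell for 26189 genes, 1 table per sample tag, and a further deposited file gives the tag call of 2401 putative cells (unit other), of which 647 were undetermined and 11 multiplets (0.458%). The submitters' processing notes name R 4.3.1 and Seurat 4.3.0. The genotype of each tag was read from the table names. No cell index was shared by the tables, and all 100 cells carried the matching call. No doublet caller was run here; tag multiplets are not in the tables.

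Depth was 7410729 and 5297952 molecules over 889 and 854 cells. Molecules were summed per pool and class, scaled to CPM and compared as log2 ratios with 0.5 molecule added. Genes needed 50 molecules (for the classes, in each pool); past 2-fold means 1 or more on the log2 scale, up or down. Intervals are exact (Poisson for sums, Clopper-Pearson for shares, scipy 1.17.1, 95%) and cover counting error only. The functions were tested on simulated data. Named genes are those of the rule, list members with at least 20 molecules in the Ccl5-high cells, the 12 highest and 12 lowest between classes, the 10 highest and 10 lowest between pools, and Saa3; H2-Q6, and the genes named in the comparison of CD8-only cells, were chosen after their values were seen. B cells, the reference for free RNA, were kept cells with at least 10 molecules of Cd79a and Cd79b per 10000 from at least 2 molecules, no Cd3 molecule and under 30 per 10000 of C1q. Cells with 3 or more Trdc molecules form a class of their own. Some items are not reported here. The members and lists were chosen with earlier results of these data known. Positions are from GENCODE release M21 (GRCm38), and promoter windows from RefSeq. Alternatives were the limits on Ccl5 and Nkg7, C1q and mitochondrial molecules, thinning, equal cell weights, other minimum counts and pseudocounts, TMM scaling and other comparators. Software was Python 3.11.15, numpy 2.4.6, pandas 2.3.3 and matplotlib 3.10.9.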

Additional observations from a re-analysis of the deposited data

Results flagged for a closer look

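Ctdnep1, a phosphatase of the nuclear envelope, went in opposite directions in the pools: its log2 ratio of Ccl5-high cells over other Cd3 cells was -1.33 in the pool labelled wild-type (8 molecules against 47) and 1.04 in the pool labelled Saa3-/- (24 against 35). The difference was not tested, and it was chosen from 3033 genes after its values were seen.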

How the results depend on the processing

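The shares of Ccl5-high cells among Cd3 cells and the CD8-only shares stayed within their intervals under the alternatives run. The count of genes past 2-fold against other Cd3 cells was 123. It was 301 with at least 20 molecules, 49 with at least 100, 6 in cells without a C1q molecule, and, in settings added after seeing the data, 51 without comparator cells holding Rag1 or Dntt, 38 without those holding Mki67 or Top2a too, 23 among CD8-only cells and 32 among these without the deepest other cell. The count between the pools was 39. It was 65 with a limit of 10 molecules of Ccl5 and Nkg7 per 10000 (29 higher, 36 lower), 352 with at least 20 molecules, 5 with at least 100, 11 in cells without a C1q molecule (8 higher, 3 lower) and 7 after thinning to 2000 molecules. Fewer genes or cells entered most of these. The split of higher and lower was 10 and 29, and 26 and 24 with each cell weighing the same, 14 and 25 with TMM scaling, which shifted all ratios by 0.03, and 13 and 23 with a limit of 30. Of the main 10 and 29 genes, 7 and 21 recurred with equal cell weights and 10 and 25 with TMM scaling. It was 4 and 11 with the limit of 30 and 6 and 14 with that of 10. After thinning 0 and 2 recurred, and in cells without a C1q molecule 0 and 0. Among CD8-only Ccl5-high cells (setting added after seeing the data) 10 of 1153 genes were higher and 30 lower, 1 and 12 of them shared. A mitochondrial limit of 15% gave the same 10 and 29. Of 161 alternative values of the genes named between classes 157 remained past 2-fold, and of 160 between the pools 139 did. The exceptions between classes were Ly6c2 in CD8-only cells and Ly6c2, Ctsw (0.67) and Dusp2 (0.61) in CD8-only cells without the deepest other cell. Between the pools 0 changed sign, and between classes 0 changed sign in both pools. Ly6c2 did so in the pool labelled wild-type under the last setting. Settings that changed only the minimum count repeat the main ratio, so their values could not differ. Genes under the minimum count of a setting were left out of these totals. No paired analysis was possible because each genotype is a single pool. Depth limits what can be seen of genes with few molecules in 100 cells.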

Other observations

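A further 15 kept cells passed the same limit on Ccl5 and Nkg7 but held no Cd3 molecule. They held natural killer receptor genes: Klra8, which encodes an activating Ly49 receptor, stood at 1713 CPM (125 molecules) against 8.68 CPM in the Ccl5-high T cells, and Ncr1 at 95.9 CPM (7 molecules) against 0. Gzma stood at 4564 against 505 CPM and Prf1 at 370 against 49.9 CPM. Gzmk went the other way, with 0 molecules in these cells, which allows up to 41.1 CPM, against 232 CPM in the Ccl5-high T cells. Eomes was high in both, at 863 and 540 CPM. These cells were set apart by their lack of Cd3 molecules, and no test was made.

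Variable segments of the T cell receptor were read in a minority of the Ccl5-high cells. A Trbv segment was found in 16 of 46 and 13 of 54 Ccl5-high cells and in 38 of 90 and 50 of 144 other Cd3 cells, and a Trav segment in 3 and 6 of the former. Delta segments (Trdv) were found in 1 and 2 Ccl5-high cells and in 40 of 53 and 34 of 48 Cd3 cells with at least 3 Trdc molecules. Variable segments of the gamma chain were found in 5 of 46 and 10 of 54 Ccl5-high cells, in 6 of 90 and 5 of 144 other Cd3 cells, and in 22 of 53 and 19 of 48 Cd3 cells with at least 3 Trdc molecules.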
